A study of Mus musculus with 9 samples.

Results

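The UGT2B glucuronosyltransferases described here are the mouse genes Ugt2b5, Ugt2b34, Ugt2b35, Ugt2b36 and Ugt2b38. They are 5 of the 15346 named genes that were measured, among 21964 features in all, in normal colonic mucosa. A gene was included when the RefSeq accession of a probe mapped to its symbol, and each of the 5 genes had 1 probe, read from 1 spot per array. The family was picked for its levels in these same arrays, so its values are given as a description. Where calls of a fit over all features are counted for it, nothing is read from them. UDP-glucuronosyltransferases sit in the membrane of the endoplasmic reticulum and join glucuronic acid, taken from UDP-glucuronic acid, to lipid-soluble molecules, which can then be excreted in bile or urine. The UGT2B branch is known for steroid hormones, bile acids and many drugs. It is best described in liver, and the epithelium of the intestine also carries it, where it meets compounds from the diet and the lumen.

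Total RNA was hybridised to 9 single-colour arrays (Cy3) of mouse genes. All samples came from normal colonic mucosa of outbred ICR mice, and all mice, the DMH group included, had subcutaneous 1,2-dimethylhydrazine (DMH), which causes colon cancer in rodents, with a weekly dose of 20 mg/kg over 20 weeks. The first group (3 arrays, "with tumors" below) was given 1.5% butyrate, a fatty acid that gut bacteria make from fibre, in the drinking water and bore tumors. The second group (3 arrays, "without tumors") had the same butyrate water and bore none, and the DMH group (3 arrays) drank plain water. No group without DMH was analysed, the tumors themselves were not measured, and ages are not given in the labels. Tumor status follows the sample titles, descriptions and source names. A separate tumor status field states the opposite for all 6 butyrate samples. Should that field hold the true status, the sign of each difference below between the butyrate groups changes, and each group's values against DMH belong to the other group. The labels do not say that the samples came from separate animals, so the errors measure only the spread between samples, and 3 arrays per group limit the precision.

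Every level below is the log2 of the spot's processed signal minus the log2 of the array's 75th percentile, so a level of 0 is the signal of that percentile, and differences are on the log2 scale. The 75th percentile ran from 188 to 880 intensity units, and the share of spots well above background was between 57.8% and 72.5%. Slide 1 held array 1 with tumors and all 3 arrays without tumors, slide 2 held the other arrays with tumors, and the DMH arrays were on slides 3 and 4 and scanned on another day. Against DMH, treatment, slide and scan day therefore cannot be told apart. Array 1 without tumors stood apart from its group. The distal colon gene Hoxb13 was at -1.98 there, against 2.48 and 2.50 on arrays 2 and 3, and Hoxd13 was at -4.19, against 3.02 and 2.49. Array 1 with tumors was also low, at 0.28 for Hoxb13 and 1.13 for Hoxd13. The UGT2B differences that use array 1 without tumors, other than those within slide 1, are therefore given also without it. So are the list genes whose call it decides.

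The 5 genes lie in 1 cluster on chromosome 5. In RefSeq's GRCm38.p6 annotation the order is Ugt2b34, Ugt2b1, Ugt2b35, Ugt2b36, Ugt2b5, Ugt2b37, Ugt2a3, Ugt2b38, Ugt2a1 and Ugt2a2. Close copies of this kind can bind each other's probes. The probe sequences were not used here, so how far a probe also read a neighbour was not tested. The 100 bases before each transcript start are shown because they hold a feature that all 5 genes share and that was not used to choose them. They come from RefSeq (GRCm38.p6) and read 5′ to 3′ on the strand of the gene. Capitals mark a match to GTTANNNNTTAAC, a pattern of letters that they share.
Ugt2b5: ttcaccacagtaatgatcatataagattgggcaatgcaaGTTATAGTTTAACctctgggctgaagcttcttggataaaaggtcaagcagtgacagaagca
Ugt2b34: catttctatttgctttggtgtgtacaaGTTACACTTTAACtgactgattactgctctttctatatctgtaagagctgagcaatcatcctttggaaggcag
Ugt2b35: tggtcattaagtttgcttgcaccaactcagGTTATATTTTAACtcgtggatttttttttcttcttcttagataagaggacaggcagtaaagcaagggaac
Ugt2b36: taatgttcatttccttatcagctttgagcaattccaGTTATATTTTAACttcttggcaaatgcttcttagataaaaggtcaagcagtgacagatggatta
Ugt2b38: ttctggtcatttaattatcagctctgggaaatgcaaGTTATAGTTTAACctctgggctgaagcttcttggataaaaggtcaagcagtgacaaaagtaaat
Ugt2b37: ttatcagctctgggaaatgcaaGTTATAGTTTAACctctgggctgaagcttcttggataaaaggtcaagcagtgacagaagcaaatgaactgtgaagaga

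These stretches are chr5:87140341-87140440 for Ugt2b5, chr5:86906938-86907037 for Ugt2b34, chr5:87092556-87092655 for Ugt2b36, chr5:87424204-87424303 for Ugt2b38 and chr5:87254789-87254888 for Ugt2b37, all on the minus strand. Ugt2b35 lies on the plus strand, at chr5:87000760-87000859. The match began 61 bases before the start in Ugt2b5, 73 in Ugt2b34, 70 in Ugt2b35, and 64 in both Ugt2b36 and Ugt2b38. Ugt2b37 (78 bases before the start) and Ugt2b1 (89) held it too, so it did not set the 5 genes apart within the cluster. The letters were taken from these promoters, as the 1 pattern of 4 letters, 4 free letters and 5 letters that all 5 genes shared, so its presence in them is no test. Searched on both strands, where the reverse complement is GTTAANNNNTAAC, they occurred in 62 of 32851 RefSeq promoters of 300 bases (0.189%, these genes included), and no other motif was searched. A match is a description of letters and does not show binding. Over 250 bases upstream, Ugt2b5 and Ugt2b38 were 81.5% identical, and Ugt2b38 and Ugt2b37 were 84.8% identical. Ugt2b34 was the least like the rest of the 5, at 47.5% to 49.8% identity with the other four.

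**Figure D1:**
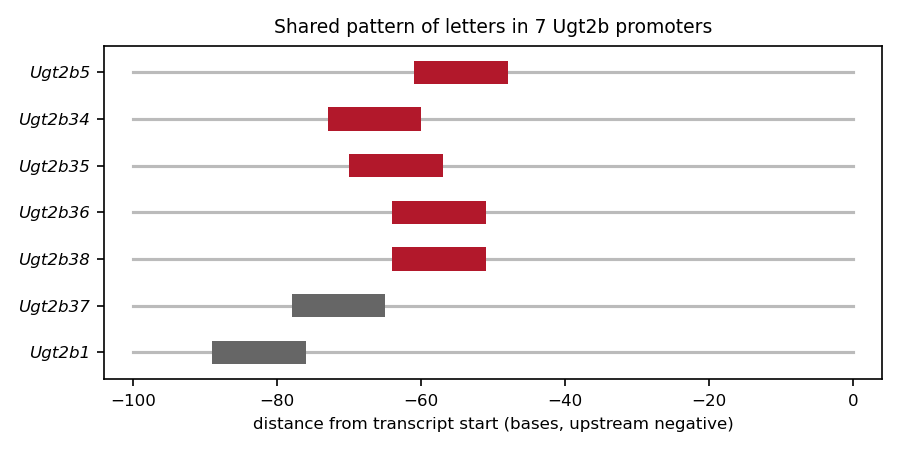
Position of the match to the shared pattern (bars) in the 100 bases before the transcript start of 7 Ugt2b genes, with the distance from the start in bases on the x axis. Red bars are the 5 genes described and grey bars Ugt2b37 and Ugt2b1; the matches begin between 61 and 89 bases upstream.

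Across the family, 42 of the 45 values (5 genes on 9 arrays) were well above background, and the 3 that were not were Ugt2b36 and Ugt2b38 values with tumors. The 5 genes had lower mean levels with tumors than in either other group. Without tumors, Ugt2b34, Ugt2b35 and Ugt2b36 had higher means than in DMH mucosa, and Ugt2b5 and Ugt2b38 had lower means. In bulk tissue, fewer cells that express a gene and less RNA per cell cannot be told apart.

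Ugt2b5 is one of the well-known liver forms in the mouse. Its level was -3.98, -3.05 and -3.44 on the 3 arrays with tumors, 0.10, -2.42 and -0.79 without tumors, and -0.012, 0.31 and 0.49 in DMH mucosa. The arrays with tumors lay below all 6 others, while array 1 without tumors lay inside the DMH range. The means were -3.49 ± 0.47 with tumors, -1.03 ± 1.28 without tumors and 0.26 ± 0.25 in DMH mucosa (SD, n = 3 each). The difference with tumors minus DMH was -3.75 ± 0.57 (SE), a signal 13.5-fold lower. Without tumors minus DMH it was -1.30 ± 0.57, and -1.87 when array 1 without tumors was left out.

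Ugt2b38 had a profile like that of Ugt2b5. The level of Ugt2b38 was -4.76, -5.04 and -5.88 with tumors, -0.94, -3.68 and -1.77 without tumors, and -1.36, -1.69 and -1.56 in DMH mucosa. The 3 arrays with tumors again lay below the other 6, and the DMH range lay inside that of the arrays without tumors. With tumors only array 2 was well above background, so the mean of -5.23 ± 0.58 there rests largely on dim spots. The means of the other groups were -2.13 ± 1.40 without tumors and -1.54 ± 0.17 in DMH mucosa (SD, n = 3 each). The difference with tumors minus DMH was -3.69 ± 0.62 (SE), or 12.9-fold lower. Without tumors minus DMH it was -0.59 ± 0.62, and -1.19 when array 1 without tumors was left out.

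Ugt2b36 was also dim with tumors. Its level was -4.72, -4.60 and -5.21 with tumors, where array 1 was not well above background. It was -0.42, -3.04 and -1.71 without tumors and -2.68, -1.98 and -1.89 in DMH mucosa. The arrays with tumors lay below the other 6, and the arrays without tumors spread over more than the whole DMH range. The means were -4.84 ± 0.33 with tumors, -1.72 ± 1.31 without tumors and -2.18 ± 0.43 in DMH mucosa (SD, n = 3 each). With tumors minus DMH gave -2.66 ± 0.58 (SE), or 6.31-fold lower. Without tumors minus DMH gave 0.46 ± 0.58, which turned to -0.19 when array 1 without tumors was left out.

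Ugt2b34 was far above background on all 9 arrays. Its level was 2.05, 2.89 and 2.42 with tumors, 3.85, 3.15 and 3.56 without tumors, and 2.97, 2.93 and 3.02 in DMH mucosa. The 3 groups did not overlap: the arrays without tumors were highest, DMH lay between, and the arrays with tumors were lowest. The means were 2.45 ± 0.42 with tumors, 3.52 ± 0.35 without tumors and 2.97 ± 0.042 in DMH mucosa (SD, n = 3 each). With tumors minus DMH gave -0.52 ± 0.25 (SE), or 1.44-fold lower, and without tumors minus DMH gave 0.55 ± 0.25. Without array 1 the difference without tumors minus DMH was 0.38.

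Ugt2b35 had the same order of groups. Its level was -1.28, -0.084 and -1.23 with tumors, 0.46, 0.47 and 0.98 without tumors, and -0.11, -0.068 and 0.064 in DMH mucosa. The arrays without tumors lay above all others, while array 2 with tumors fell inside the DMH range, so the groups with tumors and DMH overlapped. The means were -0.86 ± 0.68 with tumors, 0.64 ± 0.30 without tumors and -0.039 ± 0.092 in DMH mucosa (SD, n = 3 each). With tumors minus DMH gave -0.83 ± 0.32 (SE), or 1.77-fold lower. Without tumors minus DMH gave 0.67 ± 0.32, and 0.76 without array 1.

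**Figure D2:**
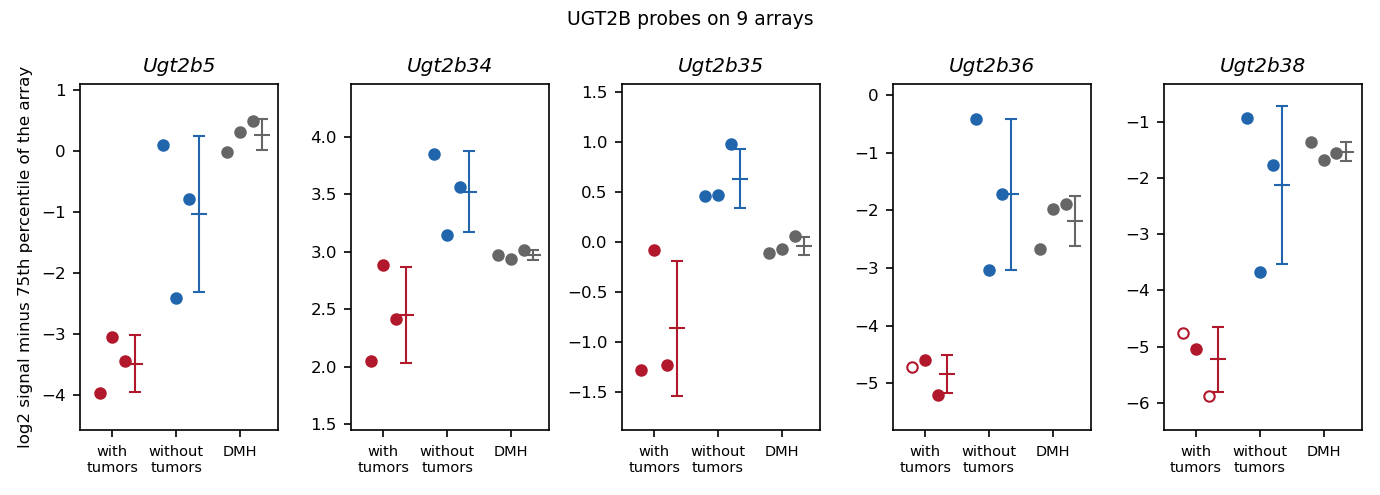
Level of the 5 UGT2B genes (log2 signal minus the 75th percentile of the array, y axis, with its own range in each panel) on each array, by group. Circles are arrays 1 to 3 from left to right, open where the probe was not well above background, and the bars to their right are mean ± SD (n = 3); in each panel the 3 arrays with tumors lie below the 3 without tumors.

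The comparison of the butyrate groups asks how mucosa of mice with tumors differs from that of mice without, under the same treatment. All 5 genes had lower levels with tumors, and for each of them the 3 arrays with tumors lay below the 3 without. Ugt2b36 differed by -3.12 ± 0.58 (SE), or 8.69-fold, and Ugt2b38 by -3.10 ± 0.62, or 8.56-fold. With tumors Ugt2b36 was well above background on 2 of 3 arrays and Ugt2b38 on 1 of 3. The sizes of both therefore rest in part on dim spots. Over the alternative settings Ugt2b36 ran from -3.78 to -1.51 and Ugt2b38 from -3.87 to -1.32. Ugt2b5 differed by -2.46 ± 0.57, or 5.49-fold. In the main fit the other genes differed less, Ugt2b35 by -1.50 ± 0.32 (2.83-fold) and Ugt2b34 by -1.07 ± 0.25 (2.10-fold). Over all features, 16.5% did not overlap with the arrays with tumors lower, and 6.56% were called lower by limma (adjusted p under 0.05, over all features). All 5 genes were called lower, but they were chosen from these values and nothing is read from that count. The median difference of the 5 genes was -2.46, beside 0.014 over all features.

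On slide 1 alone, array 1 with tumors lay below each of the 3 arrays without tumors for all 5 genes. Against the mean of those arrays it differed by -2.95 for Ugt2b5, -1.47 for Ugt2b34, -1.92 for Ugt2b35, -2.996 for Ugt2b36 and -2.63 for Ugt2b38. Ugt2b36 and Ugt2b38 were not well above background on array 1 with tumors, so their values within the slide are set by background. This comparison has 1 array on one side and no test. Leaving out array 1 without tumors gave differences between the butyrate groups of -1.89 for Ugt2b5, -0.90 for Ugt2b34, -1.59 for Ugt2b35, -2.47 for Ugt2b36 and -2.50 for Ugt2b38. In that fit 1 of the 5 genes was called, beside 1069 of all 21964 features. Without array 3 with tumors none of the 5 was called, beside 177 features, and the median difference was -2.48. With all arrays 2976 features were called, so calls became fewer over all features and nothing is read from these counts.

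**Figure D3:**
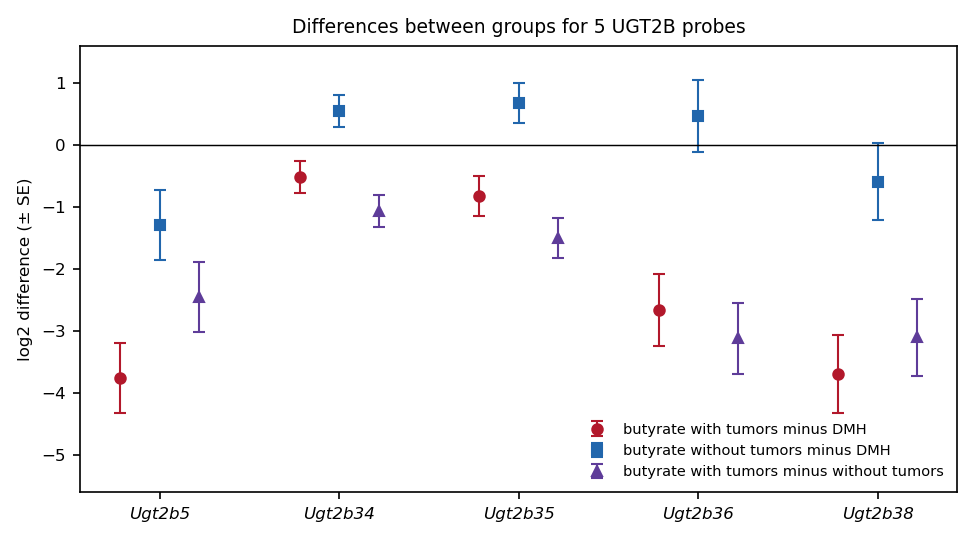
Log2 difference ± SE (y axis) of each UGT2B gene for with tumors minus DMH (red circles), without tumors minus DMH (blue squares) and with tumors minus without tumors (purple triangles), from 3 arrays a group. The red and purple points lie below 0 for all 5 genes, from -0.52 to -3.75 and from -1.07 to -3.12, while the blue points run from -1.30 to 0.67.

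Against DMH, the arrays with tumors had lower means for all 5 genes, and the groups did not overlap for 4 of them, all but Ugt2b35. Over all features 19.4% did not overlap in that direction, and 2.26% were called lower. Of the 5 genes 3 were called lower (Ugt2b5, Ugt2b36 and Ugt2b38), a count that the choice of the genes bears on and from which nothing is read. It was 0 without array 3 with tumors, where 53 of all features were called in either direction, beside 1252 with all arrays. It was also 0 without DMH array 2 or 3. Leaving out single arrays gave 4 to 1792 called features. The median difference was -2.66, beside 0.084 over all features. The arrays without tumors did not overlap DMH for Ugt2b34 and Ugt2b35, which were higher, a direction in which 32.7% of all features did not overlap. None of the 5 was called there, where limma called 30.5% of all features in either direction. The median difference was 0.46, beside 0.076 over all features, and -0.19 without array 1. These comparisons share the DMH arrays.

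All 6 butyrate arrays against DMH is the comparison that the design text of the series names. The 5 genes had differences of -2.53 ± 0.83 for Ugt2b5, 0.013 ± 0.37 for Ugt2b34, -0.076 ± 0.50 for Ugt2b35, -1.10 ± 1.00 for Ugt2b36 and -2.14 ± 1.01 for Ugt2b38 (SE, 6 against 3 arrays). Leaving out array 1 without tumors gave -2.999 for Ugt2b5, -0.16 for Ugt2b34, -0.19 for Ugt2b35, -1.67 for Ugt2b36 and -2.69 for Ugt2b38. No gene had groups without overlap, where 14.4% of all features had none with butyrate higher and 11.8% none with butyrate lower. None of the 5 was called, where 9.2% of all features were. In the fit that left out array 1 without tumors, 1 of the 5 was called, beside 1289 features. Nothing is read from that count. The means of the 2 butyrate groups lay on opposite sides of the DMH mean for Ugt2b34, Ugt2b35 and Ugt2b36, so the joint differences average unlike values.

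The 5 genes differed among themselves in how far the arrays of a group spread. Without tumors, the range over the 3 arrays was 2.52 for Ugt2b5, 2.62 for Ugt2b36 and 2.74 for Ugt2b38, with array 1 highest and array 2 lowest for each. It was 0.70 for Ugt2b34 and 0.52 for Ugt2b35. In DMH mucosa no gene ranged over more than 0.79. Across the 9 arrays Pearson's r between 2 of the genes ran from 0.61 (Ugt2b5 with Ugt2b35) to 0.95 (Ugt2b5 with Ugt2b38), and it was 0.94 for Ugt2b36 with Ugt2b38 and 0.91 for Ugt2b34 with Ugt2b35. These values describe 9 arrays that share groups, slides and scan days, and probes that may share targets.

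Of the other UGT2 genes, Ugt2b37 was the only one that passed the filter on dim probes. Its level was -2.78, -2.76 and -2.37 with tumors, -0.86, -3.62 and -2.0 without tumors, and -3.56, -2.96 and -2.65 in DMH mucosa. The arrays with tumors lay within the range of those without, unlike in the 5 genes. With tumors minus without tumors was -0.47 ± 0.60 (SE; limma, adjusted p = 0.599), and with tumors minus DMH was 0.42 ± 0.60 (adjusted p = 0.662). Its r with the 5 genes ran from 0.18 to 0.49 over the 9 arrays. Ugt2b1 was well above background on 2 of 9 arrays, and Ugt2a1 and Ugt2a3 on 0 of 9. Ugt2a2 had no probe named here.

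The genes around the family came from 6 lists of glucuronidation and its neighbours, with 53 genes, of which 45 had a probe and 40 were measured. The lists cover other UGT2 genes, the UGT1A, UGT3A and UGT8 genes, the supply of UDP-glucuronic acid, cleavage and efflux of glucuronides, sulfotransferases with steroid conversion, and regulators. Between the butyrate groups 9 of the 40 were lower and 1 higher with tumors (limma, adjusted p under 0.05), 25% called where all features had 13.5%, and the median difference was -0.70. With no scaling between arrays 0 of the 40 were called, without array 3 with tumors also 0, and without array 1 without tumors 5. Over all features 177 were called without array 3 with tumors and 1069 without array 1 without tumors.

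Ugdh, UDP-glucose dehydrogenase, makes the UDP-glucuronic acid that all these enzymes use. Its level was 4.98, 4.50 and 4.22 with tumors, 7.45, 6.16 and 6.46 without tumors, and 5.74, 5.57 and 5.64 in DMH mucosa. The 3 groups did not overlap, in the same order as for Ugt2b34. It fell with tumors against without tumors by 2.12 ± 0.34 on the log2 scale (SE, limma adjusted p = 0.0143), or 4.35-fold, and rose without tumors against DMH by 1.04 ± 0.34 (adjusted p = 0.0470). That rise was 0.66 (adjusted p = 0.0932) without array 1 and -0.042 with no scaling between arrays. By the brightest probe of each gene it was the only one of the 5 supply genes called in any of the comparisons. A dimmer probe of Ugp2, which makes UDP-glucose, was called with tumors minus without tumors (-0.99, adjusted p = 0.0494) and without tumors minus DMH (1.25, adjusted p = 0.0134).

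Sulfotransferases compete for many of the same substrates by adding sulfate. Of 11 genes of sulfation and steroid conversion, 7 fell with tumors against without tumors and 0 were called higher. Sult2a8 had a higher mean with tumors, by 1.92 ± 0.71 (adjusted p = 0.0994). Of the 7 genes 3 (Sult1a1, Sult1d1 and Hsd17b2) were called without array 1 without tumors, and 0 without array 3 with tumors. Sult1d1 was at 2.42, 2.44 and 2.10 with tumors, 5.46, 3.96 and 4.45 without tumors, and 3.07, 3.15 and 3.12 in DMH mucosa. It differed between the butyrate groups by -2.30 ± 0.34 (adjusted p = 0.0128) and was higher without tumors than in DMH mucosa by 1.51 ± 0.34 (adjusted p = 0.0139). Sult1a1 was at 2.94, 3.24 and 2.53 with tumors, 5.23, 4.27 and 4.84 without tumors, and 5.04, 4.75 and 4.81 in DMH mucosa. It differed with tumors by -1.88 ± 0.28 against without tumors (adjusted p = 0.0128) and by -1.97 ± 0.28 against DMH (adjusted p = 0.0245). Hsd17b2, which oxidises active estradiol and testosterone, differed between the butyrate groups by -1.37 ± 0.25 (adjusted p = 0.0183). Sult1b1 differed by -0.86 ± 0.18 (adjusted p = 0.0261, and 0.0668 without array 1 without tumors), but its second probe by -0.54 ± 0.48 (adjusted p = 0.450). Within slide 1, array 1 with tumors differed from the mean without tumors by -2.20 for Sult1d1, -1.84 for Sult1a1, -1.67 for Hsd17b2, -1.03 for Sult1b1 and -1.71 for Ugdh.

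The transporter gene Abcc3, which exports glucuronides across the basal membrane, fell with tumors against without tumors by 1.13 ± 0.27 on the log2 scale (adjusted p = 0.0326), and its second probe gave -0.65 ± 0.19 (adjusted p = 0.0542). Abcc2, which exports them across the apical membrane, was the 1 gene that was higher. It was well above background on 2 of 3 arrays with tumors and on 0 of 3 without, and was called higher with tumors (limma, adjusted p = 0.0446). Array 1 with tumors was dim too, so no fold is given. Neither gene was called without array 1 without tumors (adjusted p = 0.0615 for Abcc3 and 0.0711 for Abcc2) or without array 3 with tumors (0.112 and 0.131). Within slide 1 the difference was -0.89 for Abcc3 and 0.71 for Abcc2, and no Abcc2 value there was well above background. A dimmer probe of Abcg2, another efflux transporter, differed by -1.61 ± 0.16 (adjusted p = 0.00821), and its brightest probe by -0.70 ± 0.22 (adjusted p = 0.0656). Among UGT1A genes, Ugt1a6b differed with tumors from DMH by -1.25 ± 0.21 (adjusted p = 0.0319). The level of array 1 without tumors was set aside for it as an outlier spot, so that group had 2 values. Ugt1a1, the bilirubin form, was dim and differed with tumors from DMH by -2.57 ± 0.60 (adjusted p = 0.0475). The adjusted p was 0.0651 with array 3 with tumors left out and 0.0509 with array 1 without tumors left out, and the call held under 6 of 23 settings, over which the difference ran from -3.18 to -0.99. UGT1A genes share most of their exons, so a probe may read several of them.

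Of 14 measured regulators, each read by its brightest probe, Cdx2, a homeobox factor of intestinal identity, was the only one called. Dimmer probes of 3 other regulators were also called by limma. A dimmer probe of Hnf4a was higher than in DMH mucosa without tumors (1.27, adjusted p = 0.00567) and with tumors (0.94, adjusted p = 0.0464). In all 6 butyrate arrays against DMH it gave 1.11 (adjusted p = 0.0276). Another dimmer probe of Hnf4a was not called. The stress-response factor Nfe2l2 (-0.96, adjusted p = 0.0435) and the retinoid receptor Rxra (0.94, adjusted p = 0.0493) were called by dimmer probes without tumors minus DMH. The level of Cdx2 was 2.42, 2.68 and 2.50 with tumors, 3.71, 2.68 and 3.47 without tumors, and 4.04, 3.98 and 4.11 in DMH mucosa. It fell with tumors against DMH by 1.51 ± 0.26 (adjusted p = 0.0291) and in all 6 butyrate arrays against DMH by 1.13 ± 0.31 (adjusted p = 0.0496). The first call held under 17 of 25 settings and the second under 10 of 25. Against DMH, 4 of the 40 genes were called with tumors, all lower (10% beside 5.7% of all features), and 2 without tumors, both higher (5% beside 30.5%). For all 6 butyrate arrays 1 was called (2.5% beside 9.2%). Without array 3 with tumors 0 of the 40 were called with tumors against DMH, beside 53 of all features.

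**Figure D4:**
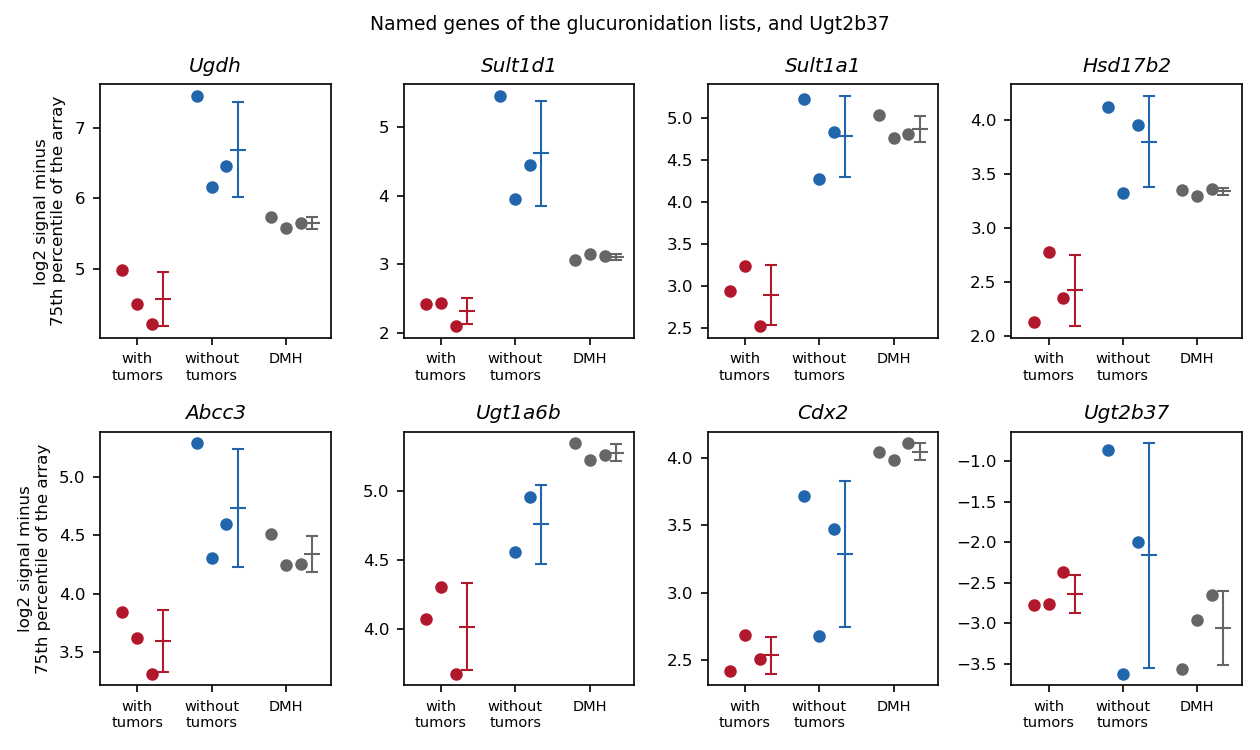
Level (log2 signal minus the 75th percentile of the array, y axis, with its own range in each panel) of 7 called genes of the glucuronidation lists and of Ugt2b37 on each array, by group, with mean ± SD to the right of the points (n = 3, and 2 values without tumors for Ugt1a6b). Ugdh, Sult1d1, Sult1a1, Hsd17b2 and Abcc3 are lowest on the 3 arrays with tumors, while for Ugt2b37 the arrays with tumors lie inside the range of those without.

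The genes whose levels tracked each UGT2B gene most closely over the 9 arrays were sought among 12963 named features well above background on all arrays (12964 for Ugt2b36 and Ugt2b38). For Ugt2b5 they were the carboxylesterase gene Ces1f (Pearson r = 0.984), Cdx2 (0.982) and Cemip2 (0.981). For Ugt2b34 they were Iqgap2 (0.996), a scaffold protein, Gipc2 (0.994) and Tmem98 (0.989). For Ugt2b35 they were Magt1 (0.990), a magnesium transporter, Vkorc1l1 (0.985) and Mecom (0.983). Ugt2b36 was closest to Nqo1 (0.972), a quinone reductase, Mfsd7a (0.971) and the cytochrome P450 gene Cyp2c66 (0.968), and Ugt2b38 to Coq4 (0.985), Mtch2 (0.985) and Ubxn4 (0.983). No gene was named for more than 1 of the 5. After the group means were taken out, r of these pairs ran from 0.851 (Ugt2b36 with Mfsd7a) to 0.986 (Ugt2b34 with Iqgap2). The pairs were picked for a high r over the same 9 arrays in 3 groups, so all these values are a description only.

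Markers of the cells in the samples also differed between the groups. The summed level of 9 absorptive colonocyte markers, on a linear scale with the array's 75th percentile as 1, was 328 to 497 with tumors, 627 to 1221 without tumors and 638 to 773 in DMH mucosa. Of the 9 markers 4 were lower with tumors than without (limma, adjusted p under 0.05) and none higher, with a median difference of -0.90. Over all features 6.56% were called lower there. The summed level of 6 general epithelial markers was 307 to 420 with tumors, 370 to 426 without tumors and 523 to 576 in DMH mucosa. Goblet cell markers (7) summed to 191 to 749 with tumors, 422 to 565 without tumors and 1286 to 1409 in DMH mucosa. Against DMH 5 of the 7 were called lower with tumors and 4 without tumors. Over all features 5.7% were called in either direction with tumors against DMH, and 30.5% without tumors. Smooth muscle markers (7) summed to 434 to 872 with tumors, 382 to 835 without tumors and 220 to 378 in DMH mucosa, and against DMH 0 of the 7 were called with tumors and 4 were higher without tumors. Leukocyte markers summed to 74.9 on array 1 with tumors, with 15.9 and 25.4 on the other arrays of its group. They summed to 11.2 to 16.8 without tumors and 13.6 to 14.4 in DMH mucosa. Adipocyte markers summed to 4.14 to 9.58 with tumors, 46.8 on array 1 without tumors with 9.22 and 11.4 on the other arrays of its group, and 19.1 to 21.0 in DMH mucosa. Distal colon markers summed to 3.80 to 20.9 with tumors, 0.586 on array 1 without tumors with 12.0 and 14.7 on the other arrays of its group, and 14.5 to 15.4 in DMH mucosa. Hepatocyte markers (4 of 7 measured) summed to 3.08 to 4.23 with tumors, 4.84 to 9.60 without tumors and 2.78 to 3.36 in DMH mucosa. Without tumors this sum is mostly Tat, at 3.25, 2.35 and 2.07 on arrays 1 to 3. The median log2 difference of the 4 markers without tumors minus DMH was -0.52, with single markers from -1.13 to 1.17. The part of these cell markers in the UGT2B levels was not tested.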

How the data were processed

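Total RNA of 9 colonic mucosa samples was measured on single-colour Agilent mouse arrays. Per the file headers, the deposited intensity values are background-subtracted signals from Agilent Feature Extraction 10.5.1.1 that were not scaled between arrays, and the array design names the build mm9. The authors' deposited table of log2 values (21829 probes) equals the log2 of those signals minus 1 constant per array (SD of the difference at most 0.0091) and was used as an alternative; it holds 3 of the 5 genes.

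Control spots and outlier spots were left out, and spots of a probe averaged. Levels are log2 signal minus the log2 of the array's 75th percentile. Probes well above background on at least 3 of 9 arrays and with at least 2 values per group were kept (28521), and the brightest probe of each gene was used (21964 features). Symbols came from RefSeq by accession (26933 probes). limma 3.58.1 in R 4.3.3 (lmFit, eBayes, 2-sided) was fitted on all features, with Benjamini-Hochberg adjustment over all of them and calls under 0.05. All butyrate against DMH was fitted with 2 groups, the rest with 3 groups. The genes, the lists and the alternatives were chosen with earlier results of these data known. List genes are named when called in a comparison, up to 4 per list and comparison by smallest p. The likeness search named 3 genes for each. The fit was tested on simulated data. Sequences are from RefSeq (GRCm38.p6); that build differs from the array's, and only names, gene order and promoter positions were taken from it. Python 3.11.15, pandas 2.3.3, numpy 2.4.6, Biopython 1.88 and matplotlib 3.10.9 were also used.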

Additional observations from a re-analysis of the deposited data

Results flagged for a closer look

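9 results stand out because levels differed between the butyrate groups with and without tumors. For Ugt2b34 all 3 arrays with tumors lay below the DMH mean and all 3 without tumors above it, and the difference with tumors minus without tumors was -1.07. Ugt2b35 did the same, with -1.50. The fit over all features called both genes lower, but they were chosen from these values, so that call is no test. For 7 list genes limma's test of the difference between the butyrate groups, adjusted over all features, was passed. The differences with tumors minus without tumors were -2.12 for Ugdh, -2.30 for Sult1d1, -1.88 for Sult1a1, -0.86 for Sult1b1, -1.37 for Hsd17b2, -1.13 for Abcc3 and 2.19 for Abcc2. Abcc2 was well above background on 2 of 3 arrays with tumors and 0 of 3 without, so its fitted difference is no measured size and no fold is given. Without array 3 with tumors none of the 7 was called (adjusted p from 0.0503 to 0.131), and without array 1 without tumors Abcc2, Abcc3 and Sult1b1 were not. Abcc2 was called under 6 of 22 settings and Abcc3 under 13 of 24. With each pair of groups fitted alone, limma called 0 features between the butyrate groups, and 5838 had an unadjusted p under 0.05.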

How the results depend on the processing

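The differences of all 5 genes with tumors minus DMH and with tumors minus without tumors kept their negative sign under every alternative run. Of their 474 differences under alternatives, over the 4 comparisons, 19 moved by more than the spread between arrays. The counts of calls depended strongly on the settings. The cause of these shifts was not tested. No scaling moved the median difference of all features by -0.85 (all butyrate against DMH), -0.61 (with tumors against DMH), -1.08 (without tumors against DMH) and 0.47 (with against without tumors), and the authors' values moved the last by -0.37. Signal over background limits Ugt2b36 and Ugt2b38 with tumors.

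Between the butyrate groups (main counts: 2976 features, 5 UGT2B genes, 10 list genes, and a median difference of -2.46), no scaling gave 1, 0 and 0. No filter on dim probes gave 1442 features and 4 list genes, and each pair fitted alone gave 0, 0 and 0 with limma, where 5838 features had an unadjusted p under 0.05. The authors' values and the stricter filter (all 9 arrays) each held only 3 of the 5 UGT2B genes (Ugt2b5, Ugt2b34 and Ugt2b35), over which their medians and counts run. The authors' values gave 3 of those 3 and 19 list genes, the stricter filter 3 of 3 and a median of -1.50, slide as a fixed block 2 UGT2B genes, and slide as a random block 6 list genes. Normexp with quantile scaling gave a median of -1.32. Leaving out each array gave 177 to 7774 features, 0 to 5 UGT2B genes and 0 to 18 list genes, with medians of -3.15 to -1.89.

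With tumors against DMH (1252, 3, 4, and -2.66), no scaling gave 35 features and 0 list genes, the authors' values 1956 features, 1 UGT2B gene and a median of -1.001, and no filter 190 features and 1 list gene. The stricter filter gave 1 UGT2B gene and a median of -0.83, normexp a median of -1.15, and slide as a random block 4, 0 and 0. Without the arrays of slide 1 there were 2504 features and 15 list genes, with each pair alone 356 features, and with DMH arrays 2 and 3 averaged 4, 0 and 0. Leaving out each array gave 4 to 1792 features, 0 to 3 UGT2B genes and 0 to 7 list genes, with medians of -2.91 to -2.47.

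Without tumors against DMH (6694, 0, 2, and 0.46), no scaling gave 1550 features, 0 list genes and a median of -0.62, slide as a random block 1006 features and 0 list genes, and DMH arrays 2 and 3 averaged 2907 features and 1 list gene. Each pair alone gave 1 UGT2B gene and 8 list genes. List genes called were 4 with quantile scaling and with the stricter filter, 1 with no filter, and 5 with the authors' values, with every probe a feature and with a trend and robust prior. Leaving out each array gave 2841 to 9941 features, 0 to 1 UGT2B genes and 1 to 9 list genes, with medians of -0.19 to 0.73. The rise of Ugdh reversed to -0.042 with no scaling.

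All butyrate against DMH (2020, 0, 1, and -1.10) gave 35 features with no scaling, 1197 with the authors' values, 511 with no filter, 17 with slide as a random block, 5052 in the fit with 3 groups and 4 with DMH arrays 2 and 3 averaged. UGT2B genes called were 3 without the arrays of slide 1 (median -2.72) and 2 in the fit with 3 groups. List genes called were 15 without slide 1, 6 in the fit with 3 groups, 2 with the percentile over detected probes, normexp, the stricter filter or every probe a feature, and 0 with no scaling, the authors' values, no filter, the mean of probes, slide as a random block or averaged DMH arrays. Leaving out each array gave 7 to 3626 features, 0 to 1 UGT2B genes and 0 to 1 list genes, with medians of -1.67 to -0.71.

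Replicate numbers were shared by the groups, but same-numbered arrays did not all deviate together (r of their deviations from -0.0095 to 0.26), so the main fits have no block. With the replicate block, all butyrate against DMH gave 585 features and 0 list genes, with tumors against DMH 477 features and 2 list genes, and without tumors against DMH 5 list genes.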
